A study of Homo sapiens with 6 samples.

Results

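The small leucine-rich proteoglycans are secreted matrix proteins, and 10 genes that encode them or a close relative were followed here through the 57341 gene names of a count table from the adrenocortical carcinoma cell line H295R. The genes are ASPN (asporin), OGN (osteoglycin), OMD (osteomodulin), ECM2, DCN (decorin), LUM (lumican), BGN (biglycan), FMOD (fibromodulin), PRELP and EPYC (epiphycan), taken from the table by their symbols, all 10 of which were found. ASPN was selected on its counts, which were 0 in every library of one group, so this contrast is a description for ASPN and is given without a test. The other 9 genes were added as its relatives and its neighbours on chromosome 9.

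RNA was sequenced from untreated parental H295R cells, a line grown from an adrenocortical carcinoma, and from a subpopulation of the same line that carries the Hedgehog receptor Ptch1 at the plasma membrane, with 3 replicates in each group. The subpopulation (H295R-PM-Ptc+ in the study) had been sorted by flow cytometry with an anti-Ptch1 antibody and then amplified, and both kinds of cells were grown in DMEM/F12 medium. The labels do not say whether replicates came from separate cultures, and the p-values therefore measure only the spread between these libraries, which may be technical. The libraries held 23264403 to 25813247 counted fragments each, and 16710 genes had enough counts to be tested with the quasi-likelihood test of edgeR.

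The libraries go against their labels at the gene that defines the sort. PTCH1 held 441, 559 and 579 counts in the libraries labelled parental and 248, 326 and 319 in those labelled Ptch1 positive, a log2 fold change of -0.81 (standard error 0.147, edgeR adjusted p = 0.0207). Without the library labelled parental replicate 2, parental replicate 3 or Ptch1 positive replicate 2 that adjusted p was 0.0799, 0.0921 and 0.0618. In the normalized values that the study published, every column follows the deposited column of the same replicate code under the other group name. The counts alone do not say which set of names is right, and the study's protein measurements were not analysed here. The libraries are therefore called by their deposited labels throughout, each difference is the libraries labelled Ptch1 positive minus those labelled parental, and every direction turns over if the names were exchanged. Of 10 adrenocortical markers 9 were tested, among them NR5A1, the master regulator of steroidogenic cells, at 367 ± 40.8 and 351 ± 10.5 CPM (SD, n = 3 each), and CYP21A2 alone was called (0.88, edgeR adjusted p = 0.00670), where 3.73% of all genes were called and 2.42% as higher. With the replicate number as a block in the fit STAR (0.41 without the block, edgeR adjusted p = 0.346) and CYP11A1 (-0.25, 0.391) were called too, at 3.91e-06 and 0.00100, in a fit that called 22.5% of all genes.

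These proteoglycans share a horseshoe-shaped core of leucine-rich repeats that lies along collagen fibrils and sets their spacing and thickness. Many carry chondroitin, dermatan or keratan sulfate chains, and several, decorin and biglycan above all, hold transforming growth factor beta and other ligands in the matrix. Asporin is the exception among its closest relatives, since it has a run of aspartates at its amino end and no site for such a chain. In tissues the family is known chiefly from fibroblasts, cartilage, bone, tendon and cornea rather than from steroid-producing cells. Its genes stand in clusters. OGN, OMD, ASPN and ECM2 lie side by side on the minus strand of chromosome 9 and together span 153 kb (hg38, 92383967 to 92536655), all of it inside the span of CENPP, a kinetochore gene on the opposite strand. ASPN itself runs from 92456205 to 92482506 and ECM2 from 92493554 to 92536655. EPYC, LUM and DCN share a cluster on chromosome 12, FMOD and PRELP are near each other on chromosome 1, and BGN is on the plus strand of the X chromosome (153494939 to 153509554).

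The 250 bases before the start sites of the 3 members with enough counts are shown, since ASPN and BGN were both lower in the libraries labelled Ptch1 positive and ECM2, the gene next to ASPN, did not pass the test. They were taken from a set of RefSeq promoter windows on GRCh38.p14. Of the 10 members 7 had an entry in that set, and DCN, LUM and OMD were not in it. The sequences run 5′ to 3′ on the strand of the gene, with CpG dinucleotides in capitals. The start sites lie 0, 665 and 41 bases from the outermost start of ASPN, ECM2 and BGN in the count table. The windows are chr9:92482507-92482756 on the minus strand for ASPN, chr9:92535991-92536240 on the minus strand for ECM2 and chrX:153494730-153494979 on the plus strand for BGN.
ASPN: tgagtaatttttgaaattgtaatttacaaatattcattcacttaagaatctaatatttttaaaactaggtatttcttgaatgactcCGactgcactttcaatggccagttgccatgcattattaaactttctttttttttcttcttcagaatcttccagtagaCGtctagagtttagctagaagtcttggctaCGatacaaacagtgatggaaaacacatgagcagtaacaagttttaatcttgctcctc
ECM2: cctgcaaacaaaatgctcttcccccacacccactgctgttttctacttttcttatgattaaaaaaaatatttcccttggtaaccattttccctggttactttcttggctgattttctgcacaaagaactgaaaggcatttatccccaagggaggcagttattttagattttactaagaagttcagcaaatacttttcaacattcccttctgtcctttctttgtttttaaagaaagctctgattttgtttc
BGN: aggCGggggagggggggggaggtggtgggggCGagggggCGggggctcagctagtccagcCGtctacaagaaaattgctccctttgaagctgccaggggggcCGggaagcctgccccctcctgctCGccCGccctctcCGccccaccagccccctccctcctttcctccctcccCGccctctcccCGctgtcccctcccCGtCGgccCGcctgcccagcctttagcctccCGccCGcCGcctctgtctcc
The windows of ASPN and ECM2 are poor in G and C (32.4% and 36.0%), against a median of 58.0% over 35116 promoter windows of the same length, and that of BGN is rich in them (74.0%). ASPN has 3 CpG dinucleotides, ECM2 has 0 and BGN has 16, where the median is 11. Searched on both strands, the BGN window held 5 matches of the GC box GGGCGG, which 42.6% of all promoter windows contain and which overlap the capitals. None of the other motifs searched was found in the 3 windows, namely TATAAA (in 10.7% of all windows), CCAAT (32.0%), TGANTCA of AP-1 (6.57%), CAAGGTCA of SF-1, the protein of NR5A1 (1.14%), and CAGAC of the SMAD proteins (38.0%).

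Of the 10 members, 3 passed the filter on low counts, 3 had at most 5 counts in any library, and 4 had no count in any of the 6 libraries. ASPN passed only through the libraries labelled parental. The 4 genes without a count were OMD, which binds bone mineral, LUM and PRELP, which bind collagen in cornea and cartilage, and EPYC, a cartilage gene. For each of them the upper limit that a count of 0 allows, 3 counts per library, is 0.117 to 0.130 CPM, where CPM scales counts to 1000000 of the library size, adjusted by TMM. These limits cover counting error only.

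**Figure D1:**
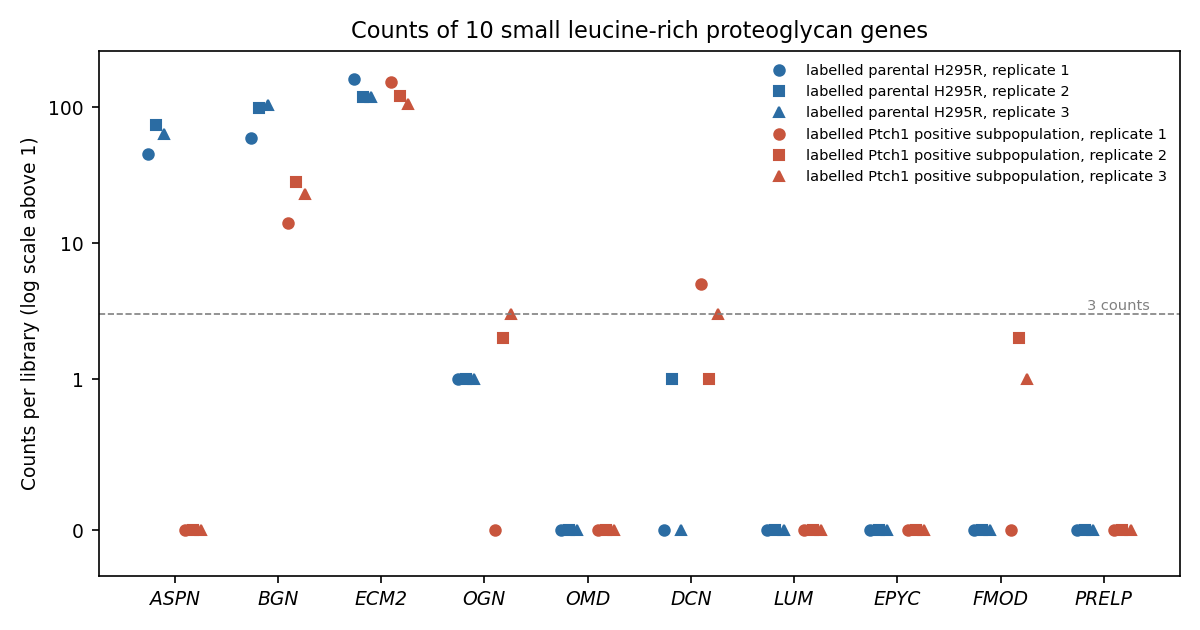
Counts of each of the 10 genes in the 6 libraries (points, by group and replicate) on an axis that is linear below 1 and logarithmic above, with the level of 3 counts dashed. ASPN stands at 45 to 74 counts in the libraries labelled parental and at 0 in the others, BGN is lower in the libraries labelled Ptch1 positive, ECM2 overlaps, and no other gene exceeds 5 counts.

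ASPN was detected in every library labelled parental and in none labelled Ptch1 positive. It held 45, 74 and 64 counts in parental replicates 1, 2 and 3, or 1.88, 2.91 and 2.59 CPM, and 0, 0 and 0 counts in the Ptch1 positive replicates. The parental mean was 2.46 ± 0.527 CPM (SD, n = 3), and set against the limit of 3 counts in each Ptch1 positive library the level was at least 20.1-fold lower there. This is the contrast that chose the family and carries no test. In RNA from whole cultures, fewer cells that express a gene and less RNA per cell cannot be told apart. ASPN was the 1 gene of the table with 0 counts in all 3 libraries labelled Ptch1 positive and at least 10 counts in each library labelled parental. The reverse pattern was found in 1 gene, TNFSF8, a ligand of the tumor necrosis factor family, with 0 counts in the libraries labelled parental and 44, 34 and 41 in the others. TNFSF8 was named after its values were seen.

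BGN, the closest relative of decorin, was the member other than ASPN that changed. It held 59, 98 and 104 counts in the libraries labelled parental and 14, 28 and 23 in those labelled Ptch1 positive. In CPM these are 2.47, 3.86 and 4.21 against 0.548, 1.13 and 0.994, so that the groups did not overlap and replicate 1 was the lowest of its group on both sides. The means were 3.51 ± 0.919 and 0.889 ± 0.303 CPM (SD, n = 3 each), 3.95-fold apart. The log2 fold change was -1.98 (standard error 0.297, 95% interval -2.66 to -1.31, edgeR adjusted p = 0.00830 over all genes tested). Within same-numbered replicates the parental library was 4.51-, 3.43- and 4.23-fold above the Ptch1 positive one for replicates 1, 2 and 3. An exact permutation test of log2(CPM + 0.1) gave a two-sided p = 0.1, and no smaller value can be reached with 3 libraries in each group. BGN kept its call with each library left out in turn, at adjusted p-values of up to 0.0410. Among all genes 3.73% were called, 2.42% as higher and 1.32% as lower in the libraries labelled Ptch1 positive, and the groups did not overlap in 23.5% (11.2% with the lower values in the libraries labelled Ptch1 positive). The upstream end of BGN overlaps HAUS7 on the other strand, and the counting used strand. Ordered by log2 fold change, BGN was number 18 of the 220 genes called lower, ASPN counted among them.

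ECM2, whose protein pairs leucine-rich repeats with other matrix domains, did not follow ASPN, although only 11.0 kb separate them in the annotation. It held 161, 118 and 119 counts in the libraries labelled parental and 154, 121 and 106 in those labelled Ptch1 positive. The groups overlapped, and replicate 1 was the highest of its group on both sides, the opposite order to BGN. In CPM the means were 5.40 ± 1.16 and 5.16 ± 0.765 (SD, n = 3 each). The log2 fold change was -0.06 (standard error 0.183, edgeR adjusted p = 0.915), with a 95% interval from -0.48 to 0.35, and it changed sign without parental replicate 1 (0.13) and without Ptch1 positive replicate 3 (0.00466).

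**Figure D2:**
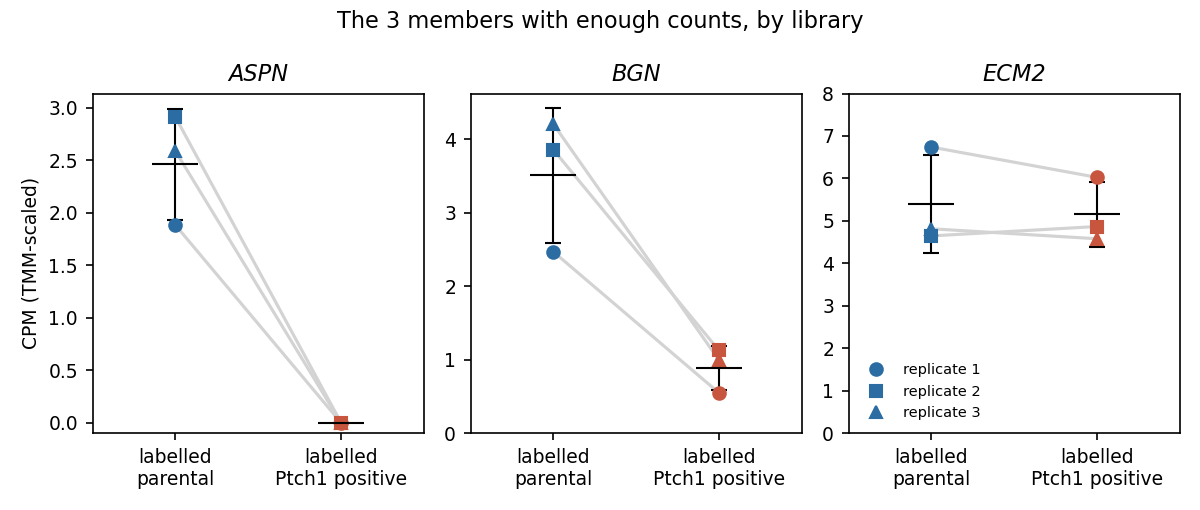
CPM of ASPN, BGN and ECM2 in each library, with the group mean and SD (bars, n = 3) and same-numbered replicates joined by grey lines. ASPN falls from 1.88 to 2.91 CPM to 0, BGN falls within each numbered pair, and the lines of ECM2 cross.

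The 3 genes with few counts cannot be compared between the groups at this depth. OGN, whose product is also called mimecan, had 1, 1 and 1 counts in the libraries labelled parental and 0, 2 and 3 in the others. FMOD, a keratan sulfate proteoglycan of tendon and cartilage, had 0, 0 and 0 against 0, 2 and 1. DCN, the most studied member and a binder of transforming growth factor beta, had 0, 1 and 0 against 5, 1 and 3 counts, 1 in all against 9. In an edgeR fit without the filter on low counts DCN had an adjusted p of 0.333.

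Compared per length, the 3 expressed members stood close together in the libraries labelled parental. Their levels there were 1.43 ± 0.375 for BGN, 1.10 ± 0.237 for ECM2 and 0.997 ± 0.213 for ASPN (CPM per kilobase of exon, SD, n = 3 each), and the libraries of each pair of neighbours in that order overlapped. In the libraries labelled Ptch1 positive the order was ECM2 (1.05 ± 0.156), BGN (0.362 ± 0.124) and ASPN (0), and there each library of ECM2 lay above each of BGN. All 3 are weakly expressed genes in this line. In the libraries labelled parental 23.6% of the tested genes had a lower CPM than ASPN, 27.4% than BGN and 32.2% than ECM2, and the share below BGN was 11.5% in those labelled Ptch1 positive.

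By Pearson correlation of the log2 CPM over the 6 libraries, the 5 tested genes whose pattern was most like that of ASPN were TMEM97, APOLD1, TDP1, UBE2E1 and STX2, with r between 0.994 and 0.999. Their differences were small beside that of ASPN, from -0.39 for UBE2E1 to -0.19 for TDP1 on the log2 scale. TMEM97, the first, held 6981, 7532 and 7356 counts in the libraries labelled parental and 6465, 6313 and 5883 in the others. The 6 libraries fall into the same groups for every gene, so that r ranks how evenly a gene separates the groups and not by how much. BGN came to r = 0.940, number 312 of 16709 genes, and ECM2 to 0.0885. ASPN was selected on this split and had no counts in the libraries labelled Ptch1 positive. These r values therefore restate the split and are no evidence of a link to ASPN.

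The genes around ASPN were compared next, since 4 members are neighbours there. Within 1 Mb of ASPN, measured between the lower coordinates of the genes, the table lists 52 other genes, of which 20 were tested and 23 had no count in any library. None of the 20 was called by edgeR, beside 3.73% of all genes, and DESeq2 and limma-voom called 0 as well, while 0 had an unadjusted p under 0.05 in edgeR, beside 17.3% of all genes. Their median log2 fold change was -0.03 where that of all genes tested was 9.39e-04. CENPP, which spans the 4 members on the opposite strand, held 744, 1078 and 1009 counts against 801, 986 and 938 (log2 fold change -0.04, standard error 0.138, edgeR adjusted p = 0.931). NOL8, a nucleolar protein gene on the minus strand whose start overlaps that of CENPP, was at -0.14 (adjusted p = 0.625). For 19 of the 20 genes the 95% interval lay within 1 on either side of 0 on the log2 scale, the exception being SUSD3. With the replicate number as a block 3 of the 20 were called, beside 22.5% of all genes in that fit (12.1% higher and 10.4% lower), namely ROR2, a Wnt receptor (0.15), NOL8 (-0.14) and FAM120AOS (-0.16, all log2).

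**Figure D3:**
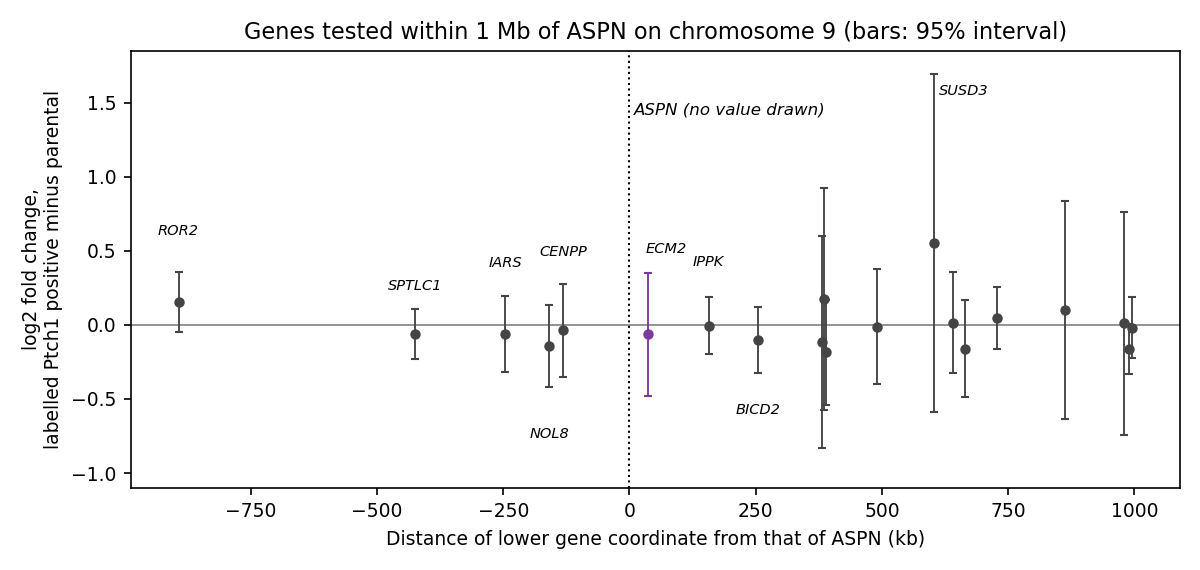
Log2 fold change with its 95% interval for the 20 genes tested within 1 Mb of ASPN on chromosome 9, by the distance of their lower coordinate from that of ASPN (dotted line, no value drawn) in kb. ECM2 (purple) and the other neighbours lie around 0, and each interval but that of SUSD3 stays within 1 of it.

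The other clusters were looked at in the same way. Around DCN, LUM and EPYC 2 of 17 genes were tested, and edgeR, DESeq2 and limma-voom called 0 of them, with 0 at an unadjusted p under 0.05. Around FMOD and PRELP 20 of 64 were tested, the same tools called 0, and the median log2 fold change was -0.06. An unadjusted edgeR p under 0.05 was found in 2 of the 20, beside 17.3% of all genes. Around BGN 51 of 94 neighbours were tested and 3 were called, all of them higher in the libraries labelled Ptch1 positive, as were 2.42% of all genes. These were MAGEA1, a cancer-testis antigen (2.85), PLXNB3, a semaphorin receptor (0.88), and ATP2B3, a calcium pump (0.50, all log2), opposite in direction to BGN itself. ATP2B3 lies next to BGN on the same strand, and its call was lost without either of parental replicates 2 and 3 and without any of the Ptch1 positive replicates, at adjusted p-values between 0.0795 and 0.181. PLXNB3 had 0.0544 without parental replicate 3. The median of the 51 genes was 0.02 (log2). With the replicate block, which called 22.5% of all genes, 14 of the 51 genes around BGN were called, 8 higher and 6 lower, as were 1 of the 2 around DCN and 2 of the 20 around FMOD.

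Of 8 further genes of the family, KERA, OPTC, CHAD, CHADL, NYX, TSKU, PODN and PODNL1, TSKU alone was tested. TSKU, the secreted protein tsukushi, held 841, 736 and 808 counts in the libraries labelled parental and 951, 848 and 909 in the others, and is thus the family gene with the most counts in these cells. Its log2 fold change was 0.19 (edgeR adjusted p = 0.353, and 0.0321 with the replicate block). KERA, OPTC and NYX had no counts, and CHAD, CHADL, PODN and PODNL1 at most 13 in any library.

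Of 29 genes for enzymes that build the sulfated chains 27 were tested, 3 rose (beside 2.42% of all genes) and 1 fell (1.32%) in the libraries labelled Ptch1 positive, at a median log2 fold change of 0.08. B3GNT7 and CHST1, which extend and sulfate keratan sulfate, rose by 1.47 (standard error 0.219, edgeR adjusted p = 0.00804) and 0.54 (adjusted p = 0.0286) on the log2 scale. B3GNT7 was at 1.33 ± 0.408 against 3.69 ± 0.260 CPM and CHST1 at 27.1 ± 3.33 against 39.3 ± 3.28 (SD, n = 3 each). CHPF2, a chondroitin glucuronyltransferase, rose by 0.36 (adjusted p = 0.0450), and CHST3, which sulfates chondroitin, fell by 0.57 on the log2 scale (adjusted p = 0.00829). XYLT1, which places the first sugar on the core protein, had the highest mean CPM of the list in the libraries labelled parental and stood at 172 ± 37.8 and 138 ± 35.4 CPM (edgeR adjusted p = 0.499, and 6.50e-05 with the replicate block). FAM20B, a kinase that acts on the linker sugars, was highest in the libraries labelled Ptch1 positive, at 150 ± 8.55 and 166 ± 11.3 CPM (adjusted p = 0.409, and 0.0208 with the block). B3GNT7 kept its call in 5 of 6 fits with a library left out (0.0516 without parental replicate 3), CHST3 in 4 of 6 (up to 0.0522), CHST1 in 2 of 6 (up to 0.103) and CHPF2 in 1 of 6 (up to 0.185). The count of 4 was 2 without parental replicate 2, 1 without parental replicate 3, 2 without Ptch1 positive replicate 1, 1 without Ptch1 positive replicate 2 and 2 without Ptch1 positive replicate 3, and it was 11 with the replicate block, 7 higher and 4 lower, beside 22.5% of all genes.

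Among the collagens that these proteins bind, 12 of 13 were tested, 1 rose (beside 2.42% of all genes) and 1 fell (1.32%), and the median log2 fold change was 0.27. COL3A1, a fibrillar collagen, held 577, 573 and 575 counts in the libraries labelled parental and 1760, 1585 and 1545 in the others, a log2 fold change of 1.51 (standard error 0.0737, edgeR adjusted p = 1.31e-04). COL5A1, which helps start fibrils and is a gene that the study picked on these libraries, held 738, 861 and 1071 against 398, 470 and 486 and thus fell together with BGN (-0.96, standard error 0.149, edgeR adjusted p = 0.00925). Both kept their calls with each library left out in turn. COL11A1, which had the most CPM of these collagens, was at -0.10 (adjusted p = 0.805), and COL1A1 at 0.21 (adjusted p = 0.455). With the replicate block 7 of the 12 were called, 4 higher (12.1% of all genes) and 3 lower (10.4%).

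None of the 13 tested growth factors and receptors of 16 on the list was called by edgeR, nor by DESeq2 or limma-voom, and 4 had an unadjusted p under 0.05 in edgeR, as did 17.3% of all genes. Their median log2 fold change was 0.06. TGFB1, the ligand that decorin, biglycan and asporin can bind, stood at 59.4 ± 9.40 and 64.8 ± 8.11 CPM (SD, n = 3 each). TGFBR1, its type I receptor and the gene of highest CPM here, was at -0.30 (95% interval -0.62 to 0.02, edgeR adjusted p = 0.332, and 1.61e-04 with the replicate block). With the block 7 of the 13 passed, 3 higher and 4 lower, beside 22.5% of all genes. Of 8 proteases and cross-linkers 5 were tested, and HTRA1, a secreted serine protease, fell by 0.34 on the log2 scale (edgeR adjusted p = 0.0488, beside 1.32% of all genes called lower). Its call was lost with any library left out, at adjusted p-values between 0.0622 and 0.204. With the block 3 of the 5 were called, HTRA1, MMP14 and ADAMTS4, all lower (10.4% of all genes). LOX, which cross-links collagen, and ADAMTS5, which cuts proteoglycans, had no counts.

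Of 25 proteoglycans outside the family 16 were tested, 1 rose (beside 2.42% of all genes) and 2 fell (1.32%), and the median log2 fold change was 0.08. GPC4, a glypican, held 1388, 1371 and 1405 counts in the libraries labelled parental and 793, 807 and 714 in the others, a log2 fold change of -0.84 (standard error 0.0715, edgeR adjusted p = 5.76e-04). SDC2, a syndecan, was also lower (-0.84, standard error 0.111, edgeR adjusted p = 0.00426). COL18A1, a basement membrane collagen with heparan sulfate chains, rose by 0.55 (adjusted p = 0.0493), a call that was lost in 5 of the 6 fits that left out a library, at up to 0.183. SPOCK1, which had the highest CPM, was at -0.03 (adjusted p = 0.920). The replicate block, which called 22.5% of all genes, raised the 3 calls to 6.

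**Figure D4:**
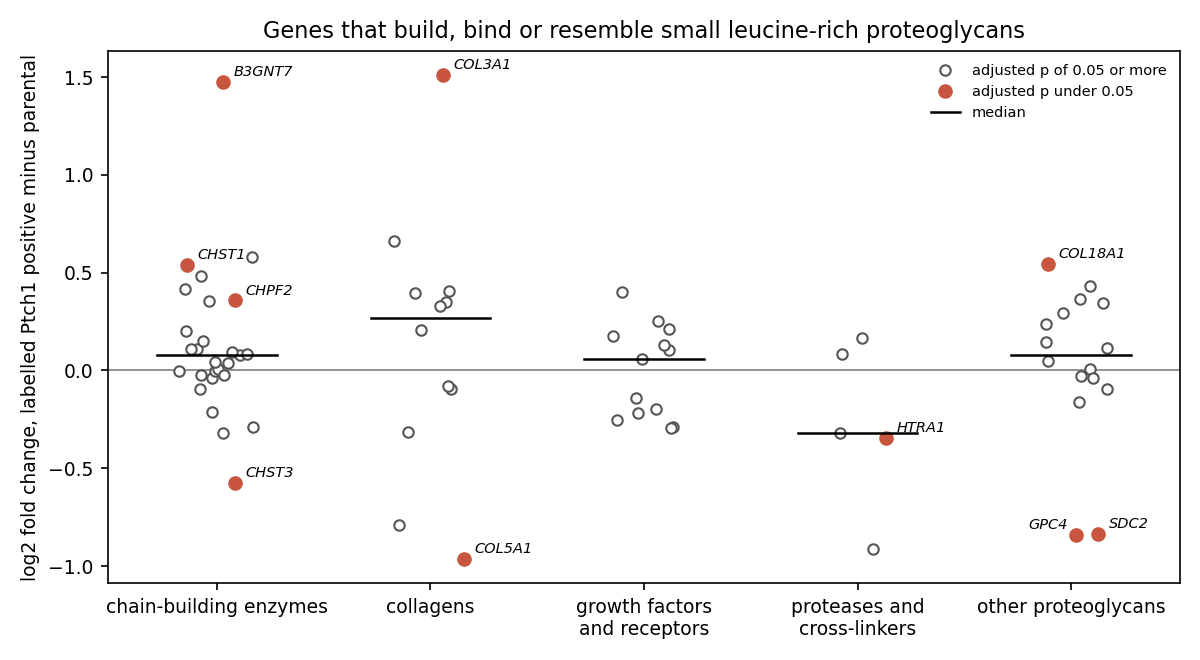
Log2 fold change of each tested gene in 5 lists, with genes at an edgeR adjusted p under 0.05 filled and named, and the list medians as black lines. COL3A1 (1.51) and B3GNT7 (1.47) lie highest and COL5A1 (-0.96) lowest among the called genes.

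Because the family is best known from connective tissue cells, markers of other cell types are given beside it. Of 9 fibroblast markers 4 were tested and 2 were called, COL3A1 and THY1, both higher (beside 2.42% of all genes) in the libraries labelled Ptch1 positive, where BGN and ASPN were lower. The summed level of the 9 ran from 67.2 to 74.1 CPM in the libraries labelled parental and from 121 to 131 CPM in the others, and most of that difference was COL3A1 (23.3 ± 0.797 against 66.5 ± 2.56 CPM, SD, n = 3 each). THY1 rose from 18, 18 and 15 counts to 36, 45 and 43 (1.29 on the log2 scale, adjusted p = 0.0175), a call that was lost in 4 of 6 fits with a library left out, at up to 0.0907. FAP, a surface protease, had the most counts of the list in the libraries labelled parental. It held 951, 910 and 900 counts against 1310, 1134 and 1019 and was not called (0.33, edgeR adjusted p = 0.0755). Its groups did not overlap in CPM, as in 23.5% of all genes. The replicate block, which called 22.5% of all genes, gave an adjusted p of 4.33e-04 for FAP. COL1A1 was at 0.21 (edgeR adjusted p = 0.455). DPT held 0, 0 and 0 against 4, 5 and 4 counts. PDGFRA held 12, 12 and 7 against 4, 6 and 7 counts, PDGFRB 2, 4 and 0 against 1, 1 and 1, and COL1A2 0, 3 and 1 against 3, 1 and 5, while TCF21 had none. Of 7 cartilage and bone markers 3 were tested and 0 called by edgeR, DESeq2 or limma-voom, with sums of 5.32 to 6.23 against 5.53 to 6.52 CPM. Of the 3 tested, 1 was lower at an unadjusted edgeR p under 0.05, beside 17.3% of all genes in either direction. With the replicate block 1 was called, as lower, beside 10.4% of all genes. The 4 endothelial markers summed to at most 0.274 CPM in any library, and the leukocyte markers PTPRC and CD68 had no counts. What part these genes have in the levels of BGN and ASPN was not tested.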

How the data were processed

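RNA of 6 libraries, 3 labelled parental and 3 labelled Ptch1 positive, had been sequenced in pairs of 75 bases on a NextSeq500. For mapping to hg38 the authors used STAR 2.4.0a. They counted fragments per gene name by strand with featureCounts (Subread 1.5.0-p3 in the submitters' processing notes) on Ensembl 76, and the deposited values are raw counts, without normalization or filter. The row with no gene name, 1 in all, held no counts and was left out.

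After TMM scaling and filterByExpr, the counts went into the two-sided quasi-likelihood test of edgeR 4.0.16 (glmQLFit, then glmQLFTest, R 4.3.3) with no term but the group and with Benjamini-Hochberg adjustment over all 16710 genes tested and a threshold of 0.05. Errors of CPM are SD over 3 libraries, and a gene at 0 was set at 3 counts per library for a bound. The script for the test was tried on simulated data. The members, the lists and the tests were chosen with earlier results of these data known. The text names every member, the genes called in each list and its gene of highest CPM, the tested genes that overlap or lie between the chromosome 9 members, the 5 genes most correlated with ASPN, PTCH1, and at most 6 cell type markers. TNFSF8, HAUS7, SUSD3, ROR2, NOL8, FAM120AOS, MAGEA1, PLXNB3, ATP2B3, TGFB1, COL1A1, FAM20B, STAR, CYP11A1, FAP, MMP14, ADAMTS4, LOX and ADAMTS5 were named outside this rule, after their values were seen, as were cell type markers beyond 6 (among NR5A1, CYP21A2, THY1, DPT, PDGFRA, PDGFRB, COL1A2, TCF21, PTPRC and CD68) and the genes of the family without enough counts outside the members. PTCH1, ASPN, COL5A1 and STAR are among the genes that the study selected on these libraries, and COL3A1 is in one of its network modules.

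Same-numbered replicates of the groups were more alike than other pairs. Across genes their log2 CPM, taken as differences from the mean of each group, had correlations of 0.465, 0.280 and 0.202, against -0.324 to 0.134 for other pairs. The study states no pairing, so the main fit has no term for it and the block is an alternative, with 3758 genes called against 624. Other alternatives were size factors by relative log expression, DESeq2 1.42.0, limma-voom (limma 3.58.1), a fit of every gene with a count, a minimum of 10 counts per library, and fits that left out 1 library each. Promoter windows came from RefSeq. Python 3.11.15 with pandas 2.3.3 was used for the tables. Protein sequences were not analysed here. Not every cell type marker is reported here.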

Additional observations from a re-analysis of the deposited data

How the results depend on the processing

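BGN stayed lower in the libraries labelled Ptch1 positive and past the threshold under all 12 alternatives, with log2 fold changes of -2.20 to -1.73 and edgeR, DESeq2 or limma-voom adjusted p-values of 5.47e-07 to 0.0410. Leaving out each library in turn gave the same range of fold changes, and for ECM2 gave -0.20 to 0.13, with the sign reversed without parental replicate 1 (0.13) and without Ptch1 positive replicate 3 (0.00466). The least fold of ASPN was 18.2 to 22.5 when libraries were left out. With the replicate block the calls rose from 624 to 3758 over all genes, from 0 to 1 among the other family genes, from 4 to 11 among the chain enzymes, from 3 to 17 among binding partners, from 3 to 6 among other proteoglycans and from 0 to 3 among the neighbours of ASPN, and the pairing changed no call of a member. Without the filter on low counts 1111 genes were called. Leaving out a library gave 219 to 810 calls over all genes (278 without parental replicate 2, 219 without parental replicate 3, 247 without Ptch1 positive replicate 2 and 257 without Ptch1 positive replicate 3), 1 to 5 for the chain enzymes, 2 to 3 for the binding partners, 2 to 3 for other proteoglycans and 0 for the other family genes and the neighbours. The cause of these shifts was not tested. OGN, DCN and FMOD, with at most 5 counts, are below what this depth can compare, and the requirement of at least 10 counts in every library gives no value for ASPN.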
